A study of Mus musculus with 9 samples.

Results

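The genes described here are 6 STAT transcription factors (Stat2, Stat3, Stat4, Stat5a, Stat5b and Stat6) and 3 JAK kinases (Jak1, Jak2 and Tyk2), taken by their symbols from the 27179 genes of the deposited table. All 9 were found, and 8 of them reached the mean of 10 normalized counts needed to enter the test. The exception was Stat4. The genes were chosen by symbol with the measured difference in normalized counts between the 2 groups already known, so that difference is given as a description.

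The livers came from C57BL/6J mice of wild-type genotype, injected retro-orbitally at 17 months of age with an AAV8 vector. The vector carried saCas9, a small Cas9 nuclease, under the hepatocyte-active TBG promoter, and a guide RNA driven by U6. The guide was directed at the Rosa26 locus, a commonly used neutral target, in 4 control mice (sgRosa26), and at Ccnd1, the gene of cyclin D1, in 5 mice (sgCcnd1). Polyadenylated RNA of a piece of the m-lobe was sequenced 3 weeks later, so every library holds the RNA of edited hepatocytes together with that of all other liver cells. Libraries A to D are named here for sgRosa26 and E to I for sgCcnd1, in the order of the table's columns.

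STAT proteins wait in the cytoplasm until a cytokine or hormone receptor is engaged. A JAK kinase bound to the receptor then phosphorylates the STAT, which pairs with another STAT, enters the nucleus and binds DNA. In liver, Stat3 carries the interleukin-6 signal that drives acute-phase proteins, Stat5b carries the growth hormone signal that sustains Igf1 and male-type gene expression, and Stat2 together with Irf9 forms the core of the complex ISGF3 that switches on antiviral genes. Stat4 and Stat6 are best known for the interleukin-12 and the interleukin-4 and interleukin-13 signals of immune cells. Jak1 serves a wide range of receptors, Jak2 the growth hormone and related receptors, and Tyk2 the type I interferon and interleukin-12 receptors.

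Depth ranged from 10.8 to 20.2 M reads (M, mega) assigned to genes per library. The targeted gene went with the labels: Ccnd1 had 684, 800.3, 625 and 867 normalized counts in A to D and 428, 347, 370.1, 339 and 325 in E to I (log2 fold change -1.03, SE 0.11, limma adjusted p = 0.0116). It was the only gene of 12993 tested, 0.00770%, that passed an adjusted p of 0.05 in limma, and no gene passed without B, D, F, H or I. Library H stands apart in that Y-linked transcripts were nearly absent, with Ddx3y at 2.00 normalized counts against 810 to 1154 in the others, and values without it are given where they bear on a member. All 7 hepatocyte markers, albumin among them, were detected, as the labelled tissue calls for. The labels do not say how the animals were housed or processed, so p-values measure only the spread between these samples.

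The promoter of Stat2 is shown because Stat2 is compared below with the antiviral genes it switches on, and because it alone among the members held, at its only listed start, the interferon response form, GAAA and GAAA with any 2 bases between them. Promoters here run from 250 bases before to 50 bases after a RefSeq start on GRCm38.p6, and all 9 members had an entry, 12 starts in all. The 250 bases before the Stat2 start, on the plus strand at chr10:128270248-128270497, follow with matches in capitals, first the interferon response form on the opposite strand and then the wider STAT form, TTC and GAA with any 4 bases between them.

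Stat2: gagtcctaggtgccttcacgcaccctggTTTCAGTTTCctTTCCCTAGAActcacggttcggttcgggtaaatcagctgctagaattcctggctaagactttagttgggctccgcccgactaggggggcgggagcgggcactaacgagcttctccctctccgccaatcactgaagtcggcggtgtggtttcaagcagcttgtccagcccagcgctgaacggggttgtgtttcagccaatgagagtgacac

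The forms searched were these and the STAT palindrome, TTC and GAA with any 3 bases between them, on both strands, each match counted also where it overlaps another. The interferon response form occurs in 3.44%, the wider STAT form in 6.95% and the STAT palindrome in 8.3% of all 32851 promoters. Apart from Stat2, the second listed start of Stat4 held an interferon response form. The other 10 promoters of the members held none of the 3 forms, which says only that these letters are not in these windows.

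The following short stretches, 10 bases to either side of a match in capitals, show the same forms at target genes of the factors. The antiviral genes Oas1a (20 bases before the start, minus strand, chr5:120907526-120907555) and Rsad2 (minus strand, chr12:26456553-26456582) hold the interferon response form, and the fibrinogen genes Fga (plus strand, chr3:83025909-83025937) and Fgb (minus strand, chr3:83050007-83050035) and the repressor gene Bcl6 (88 bases before its second listed start, minus strand, chr16:23981353-23981381) hold the STAT palindrome.

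Oas1a: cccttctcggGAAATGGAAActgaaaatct
Rsad2: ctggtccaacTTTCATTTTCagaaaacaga
Fga: aggcccccatTTCCTGGAAtgtagattcc
Fgb: gactcaatgaTTCGAGGAAccccctgtgt
Bcl6: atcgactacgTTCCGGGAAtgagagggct

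Of 17 ISGF3 targets with a promoter entry, 10 held the interferon response form (58.8%, against 3.99% of 27025 genes). The STAT palindrome was present in 7 of 22 STAT3 targets (31.8%) and 3 of 10 growth hormone and STAT5 targets (30%), against 9.55% of all genes. A match is a run of letters and not evidence of binding.

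The levels of the 9 genes spanned a wide range. Per kb of the longest annotated transcript, in control livers, Stat3 stood at 379.8 ± 94.8 normalized counts per kb (SD, n = 4), Jak1 at 367 ± 59.6, Stat2 at 361 ± 69.9, Stat6 at 311 ± 37.9 and Stat5b at 232 ± 34.2. Tyk2 followed at 99.8 ± 2.96, Stat5a at 83.0 ± 7.19 and Jak2 at 63.2 ± 4.44 normalized counts per kb (SD, n = 4). Stat4 was far below, at 3.82 ± 1.75. Stat3, Jak1, Stat2 and Stat6 could not be ordered beyond their spread: Stat3 exceeded Jak1 in 4 of 9 libraries, Jak1 exceeded Stat2 in 7 and Stat2 exceeded Stat6 in 6. Stat6 exceeded Stat5b in 8 of 9, the exception being G. Stat5b exceeded Tyk2 in all 9 libraries, by 1.93 to 2.71 times, and Tyk2 exceeded Stat5a in all 9, by 1.15 to 1.71 times. Stat5a exceeded Jak2 in 4 of 4 control libraries and in 2 of 5 sgCcnd1 libraries.

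**Figure D1:**
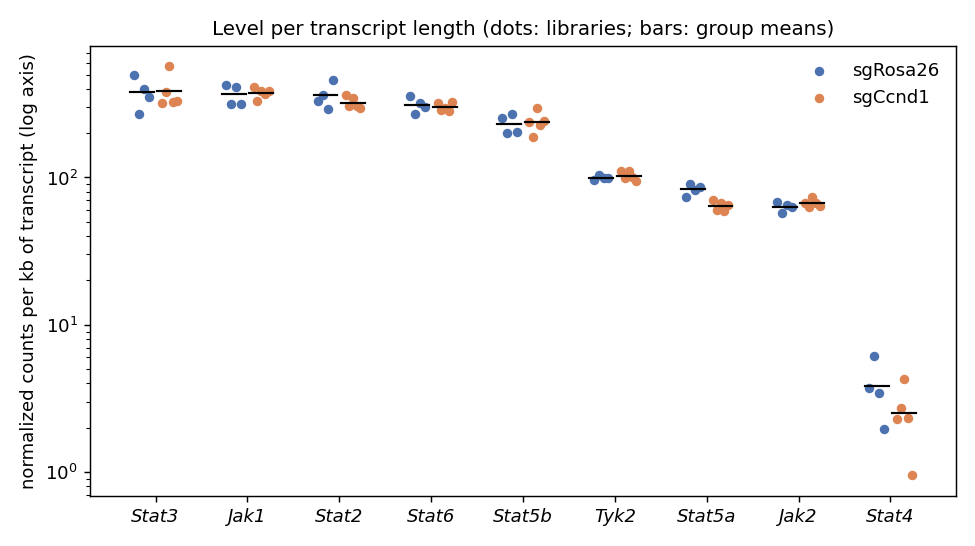
Normalized counts per kb of the longest transcript (log axis) for the 9 genes, ordered by their control mean; dots are libraries of sgRosa26 (blue) and sgCcnd1 (orange) and bars are group means. Stat3, Jak1, Stat2, Stat6 and, through its higher libraries, Stat5b overlap, Tyk2, Stat5a and Jak2 lie lower, and Stat4 is lowest in every library.

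Set against the 12556 tested genes with an annotated length, Stat3 was above 84.7% per kb, Jak1 above 84.3%, Stat2 above 83.2%, Stat6 above 81.6% and Stat5b above 77.3%. Tyk2, Stat5a and Jak2 lay near the middle, above 58.1%, 49.6% and 47.2%.

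Stat5a, the less abundant of the 2 STAT5 genes of the liver, was the only member with no overlap between groups. Its normalized counts were 290.2, 357, 326 and 341 in A to D and 277, 239, 264, 233 and 257 in E to I. All 5 sgCcnd1 libraries therefore lay below the lowest control, by a small margin for E. The means were 328 ± 28.4 (SD, n = 4) and 254 ± 18.03 (SD, n = 5), or 77.3% of the control level, and the log2 fold change was -0.37 with an SE of 0.09. Groups that do not overlap, lower in sgCcnd1, were seen in 1.97% of all genes tested, and nothing is read from this count since the gene was picked with the result known. Without library H the log2 fold change was -0.34, and over the fits that left out a library it ran from -0.43 to -0.33.

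Stat5b, the main carrier of the growth hormone signal in hepatocytes, did not show this pattern. It had 1322, 1048, 1398 and 1063 normalized counts in A to D and 1233, 988, 1555, 1176 and 1255 in E to I. The lowest library (F) and the highest (G) were both of the sgCcnd1 group, and the group means of 1208 ± 179 (SD, n = 4) and 1241 ± 204 (SD, n = 5) gave a log2 fold change of 0.04 with an SE of 0.13. The ratio of Stat5b to Stat5a normalized counts was 4.56, 2.94, 4.29 and 3.12 in the controls and 4.46, 4.13, 5.88, 5.05 and 4.88 in sgCcnd1, so these ratios overlapped between groups through A, C, E and F.

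Stat5a and Stat5b lie next to each other on mouse chromosome 11 (GRCm38): Stat5b at chr11:100780731-100850724 on the minus strand and Stat5a at chr11:100859351-100885169 on the plus strand, 8.63 kb apart. The longest open reading frames of the pair were 90.7% identical over 2294 aligned bases, with a longest identical run of 324 bases. Of all windows of 50 bases of the longest Stat5a transcript, 10.8% also occurred in a Stat5b transcript, and of windows of 100 bases 2.85%. That transcript has 6 exons, while the longest Stat5a transcript of the consensus coding set (CCDS) has 20. The shares are therefore not those of the coding transcript, which were not computed. Reads from windows that both genes share could have been dropped or split between the genes. The 3′ end of Stat5a also overlaps that of Stat3 (chr11:100885098-100939540, minus strand) by 72 bases, and whether the counting used strand is not given in the sources used here.

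Stat3, the acute-phase factor, varied more between animals than between groups. It had 3005, 1629, 2406 and 2139 normalized counts in A to D and 1942, 2287, 3431, 1972 and 2011 in E to I. A and G stood high and B low, and the coefficient of variation was 24.9% in sgRosa26 and 27.1% in sgCcnd1. The means of 2295 ± 573 (SD, n = 4) and 2329 ± 631 (SD, n = 5) gave a log2 fold change of 0.02 with an SE of 0.19. The direction was not stable: it was -0.13 without library B and without library G.

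Stat2, the interferon factor, had 1462, 1594, 1284 and 2006 normalized counts in A to D and 1589, 1335, 1523, 1344 and 1307 in E to I. Library D was highest and C lowest, both of the control group, so the sgCcnd1 values lay inside the control range. The means were 1586 ± 307 (SD, n = 4) and 1419.7 ± 127 (SD, n = 5), a log2 fold change of -0.15 with an SE of 0.12. This fold change was -0.03 without library D and -0.24 without library C. The type I interferon genes Ifnb1, Ifna2 and Ifna4 were at 0 reads in all 9 libraries.

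Stat6, which acts after interleukin-4 and interleukin-13, had 1356, 1014, 1200.4 and 1130.4 normalized counts in A to D and 1207, 1079, 1113, 1065 and 1226 in E to I. The sgCcnd1 values again lay inside the control range, and the log2 fold change was -0.04 with an SE of 0.09.

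Stat4, a factor of T and NK cells, was close to the limit of detection, with 2 to 21 reads per library. Its normalized counts were 11.1, 18.4, 10.3 and 5.83 in A to D and 6.86, 8.06, 12.7, 6.997 and 2.84 in E to I, so the groups overlapped widely. Fitted without the filter on low values, its log2 fold change was -0.56, and leaving out I gave -0.30. The summed level of 15 T and NK cell markers was 199 to 515 normalized counts in sgRosa26 and 88.0 to 338 in sgCcnd1, with all 10 markers tested below a log2 fold change of 0 and none of the 15 at 0 in every library. The part of these cells in the Stat4 level was not tested. In bulk RNA, fewer cells of a type and less RNA per cell cannot be told apart.

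Among the kinases, Jak1, the shared partner of interferon, gp130 and common gamma chain receptors, had 2090.2, 1541, 2010.4 and 1554 normalized counts in A to D. It had 2009.5, 1616, 1906, 1811 and 1890.4 in E to I, all within the control range, with a log2 fold change of 0.05 (SE 0.11). Jak2, the kinase of the growth hormone receptor, had 341, 288, 326 and 319 normalized counts in A to D. In E to I it had 337, 318, 372, 337 and 321, G being highest, with a log2 fold change of 0.08 (SE 0.09). Tyk2, a kinase of the type I interferon receptor, was the steadiest member in the controls, with 467, 501, 478 and 482 normalized counts and a coefficient of variation of 2.96%. In E to I it had 537, 475, 533, 486 and 456, above all controls in E and G and below all in I, with a log2 fold change of 0.04 (SE 0.08).

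**Figure D2:**
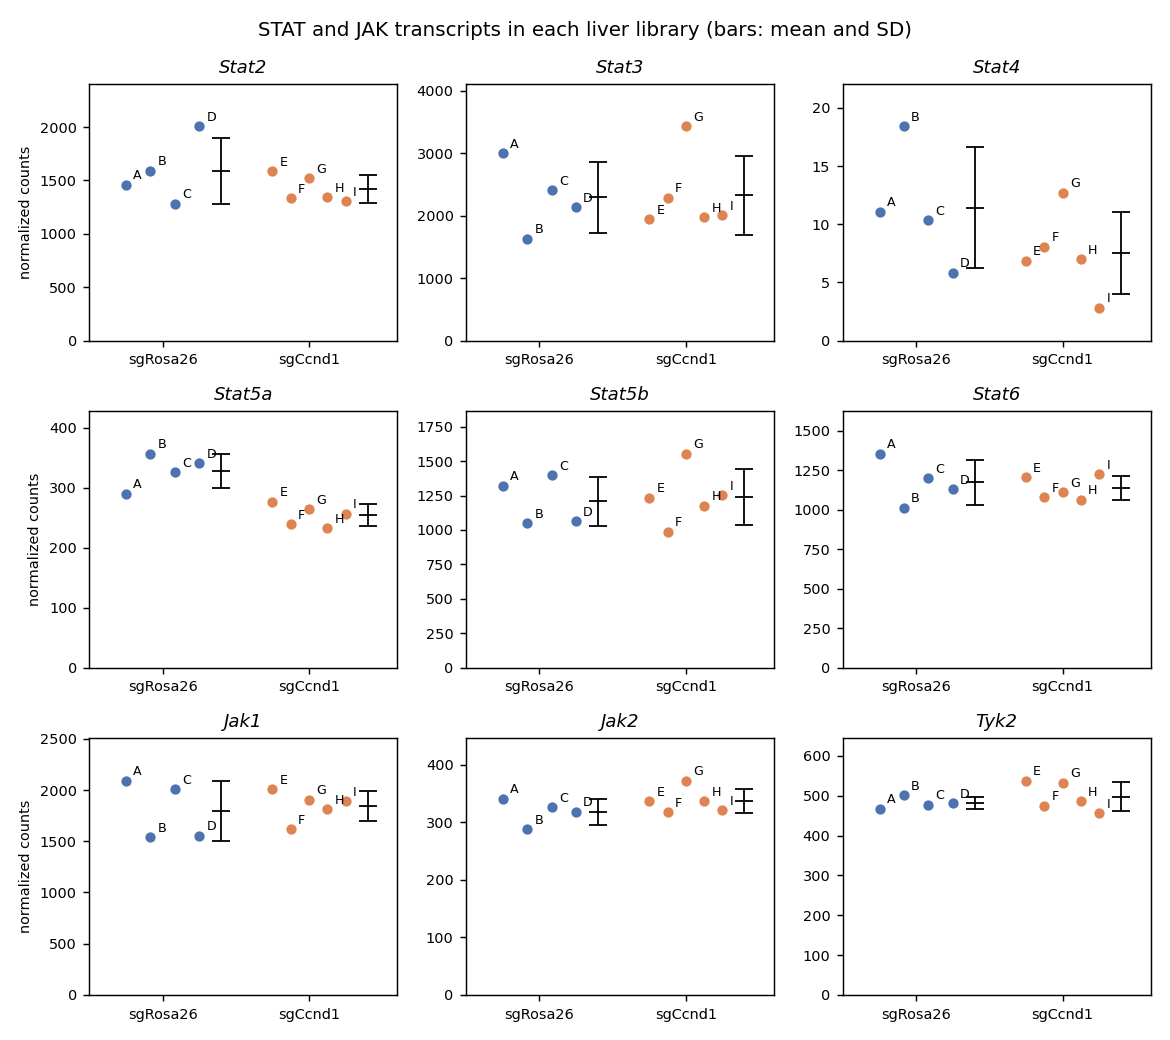
Normalized counts of each gene in each library (letters A to D sgRosa26, E to I sgCcnd1), with the group mean and SD drawn beside the points; every axis starts at 0. Only for Stat5a do the 5 sgCcnd1 points (233 to 277) all lie below the 4 control points (290.2 to 357); library G is highest for Stat3, Stat5b and Jak2.

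Of the 8 members tested, 3 had a log2 fold change below 0 and 5 above, with a median of 0.03, beside 0.01 over all genes tested, of which 47.1% were below 0. None passed an adjusted p of 0.05 in limma (0.00770% of all genes did), in edgeR (0.00770%) or in DESeq2 (0.539% lower and 0.262% higher). At an unadjusted limma p under 0.05 there was 1, Stat5a, beside 5.74% of all genes lower and 5.22% higher. Its adjusted p was 0.253 in limma, 0.229 in edgeR and 0.0553 in DESeq2, and without H 0.502 in limma, 0.476 in edgeR and 0.289 in DESeq2. For the other 7 the limma adjusted p was 0.676 or more. That these differences missed the threshold does not show that the levels were equal.

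**Figure D3:**
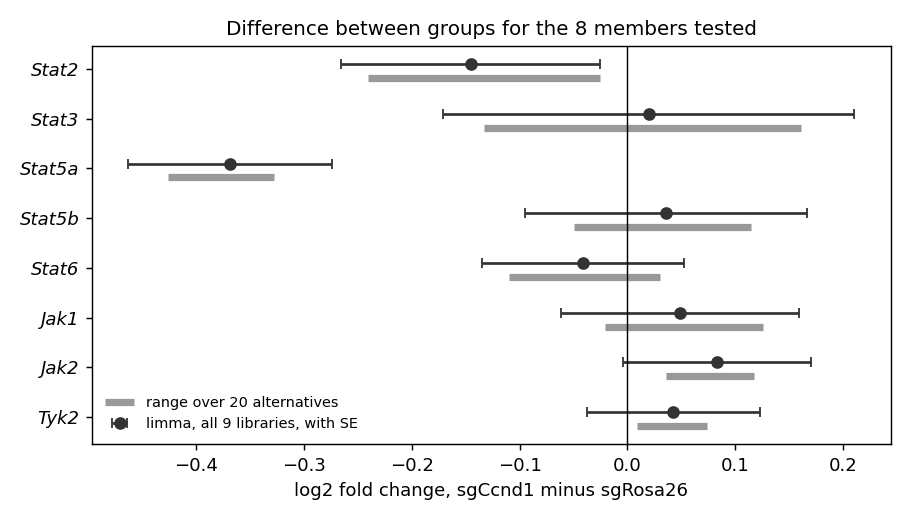
Log2 fold change of sgCcnd1 minus sgRosa26 for the 8 members tested; points are the limma estimates with their SE and grey bars the range over 20 alternative analyses. Stat5a lies at -0.37 with alternatives from -0.43 to -0.33, and the ranges of Stat3, Stat5b, Stat6 and Jak1 cross 0.

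Markers of other cell types are given here beside Stat5a. The summed level of 9 monocyte and other myeloid markers was 1781 to 2048 normalized counts in sgRosa26 and 1378 to 1632 in sgCcnd1, without overlap. Of these markers 9 of 9 had a log2 fold change below 0 (all genes 47.1%). None of the 9 was called by limma or at 0 in all libraries. DESeq2 called 2 lower (all genes 0.539%), Lyz2 (adjusted p = 0.00216) and Cd68 (adjusted p = 0.0282), and its calls of markers without H were not examined. Lyz2 made up the largest share of the sum, with means of 991 and 733 normalized counts, and Ly6c2 had a higher mean in sgCcnd1 (22.1 and 25.4). T and NK cell markers, with the ranges given beside Stat4, were below 0 in 10 of 10 (median -1.07). B and plasma cell markers were below 0 in 6 of 6 (median -0.45) and stellate cell markers in 5 of 6 (median -0.39), with summed levels that overlapped between groups. Kupffer cell markers overlapped between groups (2799.7 to 3979 and 2704 to 3349 normalized counts in sum), as did endothelial markers (1844 to 2828 and 2076 to 2970.1) and cholangiocyte markers (928 to 1906 and 749.7 to 1165, 3 of 5 below 0, median -0.31). Hepatocyte markers had a median of 0.14, with 3 of 7 below 0. The part of any of these cells in the Stat5a level was not tested.

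How the members varied between animals of the same group was examined after subtracting each group's mean from the log2 values, a measure that does not use the difference between groups. Over the 28 pairs of members, 4 had an exact permutation p under 0.05 (2880 within-group permutations, two-sided) and 0 passed after Benjamini-Hochberg adjustment. The closest pair was Stat3 with Jak2 (n = 9 libraries, Pearson r = 0.874, exact p = 0.0146, adjusted p = 0.178; Spearman rho = 0.767, exact p = 0.0417, adjusted p = 0.167), and without A and G r was 0.618. Stat6 went with Jak1 (r = 0.826, exact p = 0.0146, adjusted p = 0.178; rho = 0.817, exact p = 0.0181, adjusted p = 0.148), and without A and B r was 0.663. Stat5b went with Jak2 (r = 0.806, exact p = 0.0191, adjusted p = 0.178; rho = 0.817, exact p = 0.0104, adjusted p = 0.148), and without F and G r was 0.654. The fourth pair was Stat5b with Jak1 (r = 0.802, exact p = 0.0313, adjusted p = 0.219; rho = 0.80, exact p = 0.0326, adjusted p = 0.152), for which r was 0.935 without F and G. Over all genes tested, 0.531% had a higher r with Stat3 than Jak2 did, 3.16% a higher r with Stat6 than Jak1 did, and 2.37% and 2.56% a higher r with Stat5b than Jak2 and Jak1 did. The neighbours Stat5a and Stat5b showed no such relation (r = -0.02, exact p = 0.953, adjusted p = 0.953; rho = -0.05, exact p = 0.913, adjusted p = 0.957).

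Stat2, Stat3, Stat5a and Stat5b were next compared in the same way with genes known to respond to them, 79 relations in all. Stat4 and Stat6 were not compared with target genes. Values of r between Stat3 and acute-phase genes ranged widely, and differences between these genes were not tested. Of 26 STAT3 targets of hepatocytes, 22 had r above 0 with Stat3 and 11 had r above 0.8 (42.3%), beside 1.54% of all genes tested. Their median r was 0.669, beside 0.00 over all genes, and 9 of the 26 had an exact permutation p that passed the adjustment over the 79. Without A and G the median r was 0.237, with 18 above 0 and 3 above 0.8. The serum amyloid genes Saa1, Saa2 and Saa3 had r of 0.189, -0.037 and -0.20 with Stat3, and the iron hormone gene Hamp -0.45.

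Fga, the alpha chain of fibrinogen, had 115547, 57181, 90579 and 76733 normalized counts in A to D and 77854, 84649, 126040.0, 85878 and 72276 in E to I. Like Stat3 it was high in A and G and lowest in B. The correlation with Stat3 was r = 0.965 (n = 9, exact permutation p = 0.00347, adjusted p = 0.0349; rho = 0.867, exact p = 0.00799, adjusted p = 0.110) and r was 0.893 without A and G.

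Serpina3n, a secreted protease inhibitor of the acute phase, had 7430.2, 4799.9, 6229 and 5425 normalized counts in A to D and 4018, 5055, 8218, 4334 and 4021 in E to I. Its correlation with Stat3 was r = 0.959 (n = 9, exact permutation p = 0.00104, adjusted p = 0.0349; rho = 0.983, exact p = 0.00139, adjusted p = 0.0686) and 0.869 without A and G. For Fgb, the fibrinogen beta chain, r was 0.939 (exact p = 0.00312, adjusted p = 0.0349; rho = 0.833, exact p = 0.0132, adjusted p = 0.116) and 0.871 without A and G. Of the other 6 that passed, r without A and G was 0.749 for Itih3, 0.697 for Orm1 and 0.686 for Itih4. In the remaining 3 the relation rested more on these libraries: r was 0.445 in place of 0.883 for the haem carrier Hpx, 0.578 in place of 0.912 for the fibrinogen chain Fgg and 0.589 in place of 0.904 for the pentraxin Apcs without them. None of these relations passed with Spearman's rho after adjustment.

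Interleukin-6 itself was at 0 to 2.00 normalized counts, at most 2 reads in a library. Its receptor Il6ra had 513, 231, 508 and 337 normalized counts in A to D and 362, 201, 656, 293 and 423 in E to I, high in G, A and C and low in F and B. Il6ra was among the 3 genes most like Stat5b between animals (r = 0.960).

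Among the listed genes of the OAS family, most of which sense viral double-stranded RNA, r with Stat2 ran from -0.0045 to 0.937. Differences between these genes were not tested. Oas2 had 70.1, 88.5, 62.9 and 124 normalized counts in A to D and 79.3, 55.5, 83.2, 73.0 and 62.4 in E to I. Library D was highest for both Stat2 and Oas2 among the controls, and E and G were the 2 highest for both in sgCcnd1. The correlation was r = 0.937 (n = 9, exact permutation p = 0.00243, adjusted p = 0.0349; rho = 0.917, exact p = 0.00521, adjusted p = 0.103) and 0.868 without D and E. Over the 25 ISGF3 targets the median r with Stat2 was 0.610, with 22 above 0, beside 0.01 over all genes. Of the 25, 3 had r above 0.8 (12%, all genes 0.454%), and 2 passed the adjustment, Oas2 among them. The other was Oas1a (r = 0.790, exact permutation p = 0.00417, adjusted p = 0.0349; rho = 0.917, exact p = 0.00278, adjusted p = 0.0731), for which r was 0.635 without D and E. Oas3 missed the adjustment (r = 0.766, exact permutation p = 0.0108, adjusted p = 0.0567), and r was 0.136 for Oasl2, -0.0045 for Oasl1 and -0.47 for the RNA sensor Ifih1. Without D and E the median r of the 25 was 0.468, with 23 above 0.

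Growth hormone and STAT5 targets did not go with Stat5b as a list. Their median r over 14 genes was -0.11, beside -0.02 over all genes, and -0.03 without F and G. An r above 0.8 was seen for 1 (7.14%, all genes 2.62%), and this 1 alone passed the adjustment. That gene was Bcl6, a repressor whose own transcription growth hormone and STAT5 are known to lower in liver, with 932, 493, 859 and 237 normalized counts in A to D and 459.7, 110.1, 1282, 168 and 326 in E to I (r = 0.910, n = 9, exact permutation p = 0.00486, adjusted p = 0.0349; rho = 0.917, exact p = 0.00833, adjusted p = 0.110). Without F and G r was 0.773 for Bcl6. Cish, the next strongest, went the other way and missed the adjustment (r = -0.728, exact permutation p = 0.0153, adjusted p = 0.0754; rho = -0.75, exact p = 0.0236, adjusted p = 0.170). Without F and G its r was -0.427. With Stat5a the median r of the 14 genes was 0.10, or 0.06 without A and H, and 0 passed the adjustment. Library H held the highest value of 7 of the 14, and correlations of Stat5b without H were not computed.

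**Figure D4:**
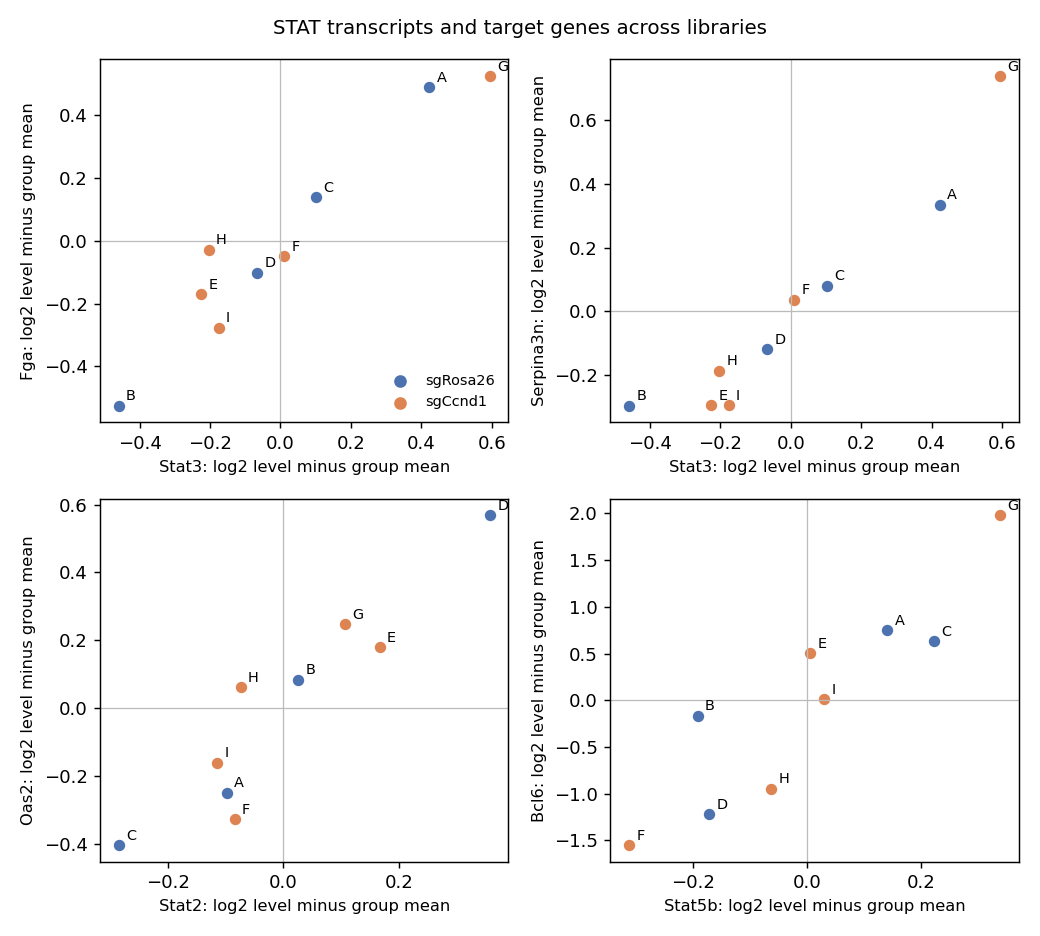
Log2 level minus the group mean of a STAT gene (x axis) and of a target gene (y axis), 1 point per library, for Stat3 with Fga and Serpina3n, Stat2 with Oas2 and Stat5b with Bcl6; blue is sgRosa26 and orange sgCcnd1. Libraries A and G are at the upper right for Stat3, D for Stat2 and G for Stat5b, and Pearson r is 0.965, 0.959, 0.937 and 0.910.

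The genes most like each member between animals, among 10350 others whose mean reached 50 normalized counts, were found by Pearson r over the 9 libraries after the same subtraction. For Stat3 they were Prg4 (0.990), Limd2 (0.968) and Fga (0.965), and for Stat2 Mapk14 (0.955), Uckl1 (0.941) and Atp13a2 (0.940). For Stat5a they were D130043K22Rik (0.942), Fzd5 (0.940) and Sp100 (0.933), and for Stat5b Npc1 (0.972), Tmed7 (0.964) and Il6ra (0.960). Stat6 was most like Arcn1 (0.979), Map4 (0.972) and Fbxo11 (0.968). For Jak1 they were Camk1d (0.980), Pcdh1 (0.976) and Sptbn1 (0.974), for Jak2 Dna2 (0.983), Inpp1 (0.972) and Slc17a4 (0.971), and for Tyk2 Zmynd15 (0.914), Amt (0.903) and Sesn1 (0.902). Being the highest of many, these values carry no test.

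The genes around the JAKs and STATs were described in 13 lists of 170 genes, of which 134 were tested. None passed an adjusted p of 0.05 in limma or edgeR, 30 were lower (22.4%, all genes 5.74%) and 5 higher (3.73%, all genes 5.22%) at an unadjusted limma p under 0.05. DESeq2 called 9 lower and 0 higher (all genes 0.539% and 0.262%), and 4 lower and 1 higher without H. Each list's median log2 fold change is to be read beside 0.01 for all genes tested.

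ISGF3 targets were the list with the lowest median, -0.57, and 24 of 25 were below 0. At an unadjusted limma p under 0.05, 19 of the 25 were lower (all genes 5.74%), 8 did not overlap between groups (all genes 1.97%) and 8 were called lower by DESeq2 (all genes 0.539%). Without H the median was -0.51 and 16 of 25 were lower at that p (all genes 4.28%), and DESeq2 called 4, Cmpk2, Ifi44, Ifit1 and Rsad2 (all genes 0.207%). The summed myeloid markers given beside Stat5a did not overlap either (1781 to 2048 and 1378 to 1632 normalized counts, 9 of 9 below 0), and 10 of 10 T and NK cell markers were below 0. The part of these cells in the ISGF3 target levels was not tested. Cmpk2, a mitochondrial nucleotide kinase, had 192, 260.3, 189.6 and 309 normalized counts in A to D and 123, 106, 126, 135 and 149 in E to I. All 5 sgCcnd1 libraries lay below the controls, with a log2 fold change of -0.87 (SE 0.16, limma adjusted p = 0.173, DESeq2 adjusted p = 0.000329). Rsad2, the antiviral enzyme viperin, was at -0.81 (limma adjusted p = 0.225) and Ifi44 at -0.86 (limma adjusted p = 0.227). In the complex itself, Irf9 had 655, 707, 611 and 744 normalized counts in A to D and 544, 546, 632, 461 and 627 in E to I, with overlap through C, G and I (log2 fold change -0.28, limma adjusted p = 0.372). Stat2, as given above, was at -0.15 with full overlap.

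The receptors of interferons lay near 0. Ifnar1 had 678 to 814 normalized counts in sgRosa26 and 732 to 819 in sgCcnd1 (log2 fold change 0.10), Ifnar2 875 to 1267 and 919.7 to 1449.9 (0.02). Ifnar1 was at 0.15 without library A and 0.066 without B, and Ifnar2 at -0.083 without G and 0.11 without D. The interferon gamma receptor chains Ifngr1 and Ifngr2 were at -0.14 and -0.20, with limma adjusted p-values of 0.565 and 0.543, and Ifngr2 was at -0.30 without library D. Interferon gamma, Ifng, had at most 2.91 normalized counts.

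In the list of common gamma chain, interleukin-3 and interleukin-4 receptors, 10 of 11 genes were below 0 (all genes 47.1%), with a median of -0.50, 6 of them at an unadjusted limma p under 0.05 (all genes 5.74%). Without H the median was -0.46 and 5 of 11 were lower at that p (all genes 4.28%). Csf2ra, a chain of the GM-CSF receptor, had 132, 125, 120.1 and 130.1 normalized counts in A to D and 80.0, 95.8, 76.4, 80.0 and 92.3 in E to I, with no overlap (log2 fold change -0.58, limma adjusted p = 0.225, DESeq2 adjusted p = 0.0135), and DESeq2 did not call it without H. Csf2rb, the shared signalling chain, was at -0.50 (limma adjusted p = 0.271), and Il4ra, the interleukin-4 receptor that signals through Stat6, at -0.09 (limma adjusted p = 0.735). Il4ra was at -0.15 without library D and -0.049 without C. In other lists, Csf3r, the G-CSF receptor of neutrophils, was at -0.59 (limma adjusted p = 0.253), and Il10ra, a receptor chain for interleukin-10, at -0.66 (limma adjusted p = 0.255), both without overlap, while Il12rb2, a chain of the interleukin-12 receptor, was at 0.28. The lowest values of the common gamma chain list were those of the lymphocyte receptors Il2rb (-1.12, limma adjusted p = 0.294) and Il21r (-1.002, limma adjusted p = 0.339). The summed myeloid markers given beside Stat5a did not overlap between groups, and the summed T and NK cell markers had means of 338 and 168 normalized counts (10 of 10 below 0, 0 called by limma or DESeq2). The part of these cells in the receptor levels was not tested.

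Ghr, the growth hormone receptor that signals through Jak2, had 7036 to 8879 normalized counts in sgRosa26 and 8318 to 9739 in sgCcnd1 (log2 fold change 0.14, limma adjusted p = 0.603). Its log2 fold change was 0.072 without library B and 0.18 without C. Il6st, the gp130 chain, was at 0.26 (limma adjusted p = 0.526) and Lifr, the leukaemia inhibitory factor receptor, at 0.27 (limma adjusted p = 0.540), or 0.12 without library H. Il11ra1, a receptor for interleukin-11, was at 0.13 (limma adjusted p = 0.751), or 0.26 without library B and 0.019 without C. Lepr, the leptin receptor, had 30.7 to 67.6 and 33.5 to 129 normalized counts (0.75, limma adjusted p = 0.446). The medians of the gp130 list and of the list of growth hormone and related receptors were -0.03 and 0.00. Of the 9 gp130 genes tested, 4 were above 0 and 5 below, the lowest being the ligand Clcf1, with 10 to 47 reads per library. Clcf1 was at -0.88 (limma adjusted p = 0.279), without overlap between groups.

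Among targets of Stat5b, 11 of 14 were above 0, with a median of 0.24, and 4 had an unadjusted limma p under 0.05, all higher (28.6%, all genes 5.22%). Library H held the highest value of 7 of the 14. Without H, 10 of 14 were above 0, with a median of 0.16, and 2 were higher at that p (14.3%, all genes 3.72%). Socs2, the inhibitor that growth hormone induces, had 171, 118, 99.5 and 91.3 normalized counts in A to D and 307, 278, 251, 807 and 170.3 in E to I. Library H was far above the others and I overlapped with the controls (log2 fold change 1.41, SE 0.35, limma adjusted p = 0.253, DESeq2 adjusted p = 0.0756). Without H its log2 fold change was 1.07 (SE 0.22, limma adjusted p = 0.393), and DESeq2 called it higher (1.08, adjusted p = 0.0029), the 1 pathway gene it called higher then. Igf1, the growth factor made by liver in response to growth hormone, had 6909 to 8828 and 8684 to 10668 normalized counts (0.22, limma adjusted p = 0.441), and Igfals, which carries it in blood, was at 0.35 (limma adjusted p = 0.337). H was highest for both, and without it they were at 0.18 and 0.30.

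STAT3 targets of hepatocytes had a median of 0.00, with 14 of 26 above 0 and none at an unadjusted limma p under 0.05. C-reactive protein, Crp, was at 0.22 (limma adjusted p = 0.528) and at 0.12 without library G. Cebpb, a factor that acts beside Stat3, was at 0.32 (limma adjusted p = 0.544) and at 0.19 without A. Serpina3n was at -0.26 (limma adjusted p = 0.660), at -0.44 without G and at -0.15 without A. The 18 inhibitors of the pathway had a median of 0.05: apart from Socs2, Usp18, which blocks the interferon receptor and is itself an ISGF3 target, was at -0.64 (limma adjusted p = 0.279), and Ptprc, the leukocyte phosphatase CD45, at -0.43 (limma adjusted p = 0.338). The 11 partners and adaptors had a median of 0.01. The coactivator Ep300 was at 0.14 (-0.040 without B and 0.27 without A) and the adaptor Stam at 0.16 (0.10 without B and 0.26 without C). For STAT6 targets 4 of 12 and for STAT4 targets 5 of 9 had enough signal to be tested, with medians of -0.18 and -0.04 and no unadjusted limma p under 0.05. Mrc1, the mannose receptor and a STAT6 target, was at 0.05, and the STAT4 targets Furin, Ets1 and Hlx were at 0.01, -0.12 and -0.04. Leaving out a library gave -0.027 to 0.13 for Mrc1, -0.045 to 0.056 for Furin, -0.24 to -0.035 for Ets1 and -0.16 to 0.10 for Hlx. The interleukin-10 and interleukin-12 group had a median of -0.01 (Il10rb 0.05 and Il22ra1 -0.23, the latter -0.092 without F and -0.35 without B), type I interferon receptors 0.06 and interferon gamma receptors -0.17.

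**Figure D5:**
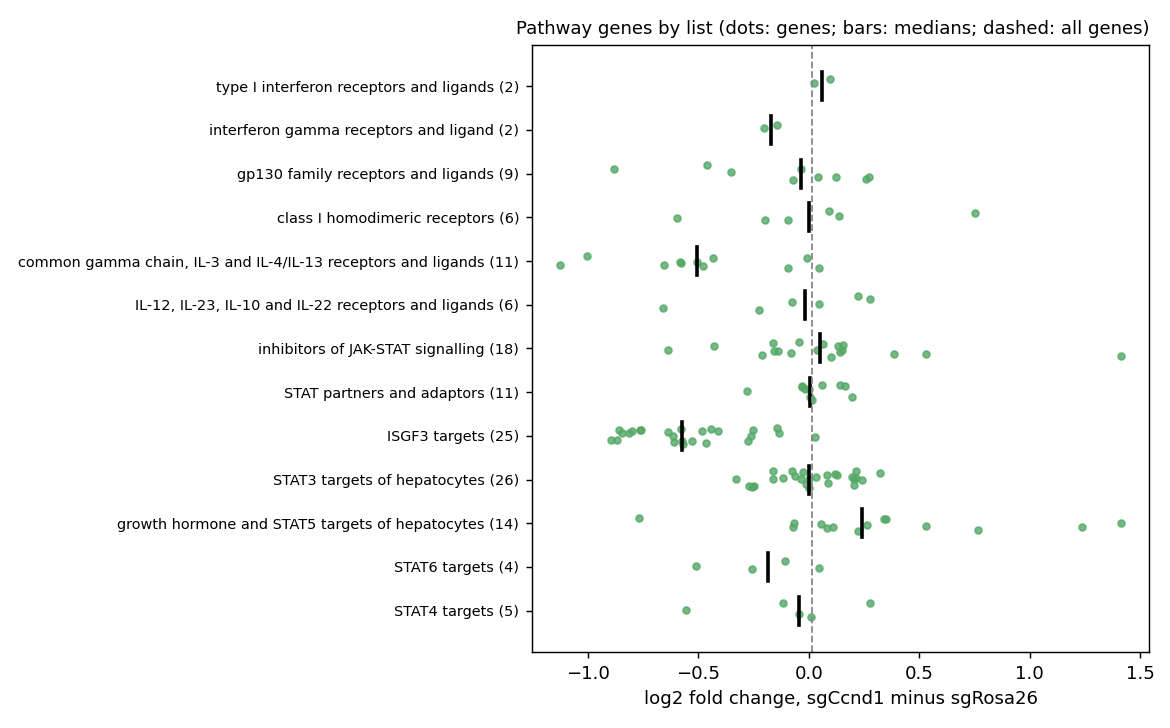
Log2 fold change of sgCcnd1 minus sgRosa26 for each tested gene of 13 lists around the JAKs and STATs (number tested in brackets); dots are genes, black bars list medians and the dashed line the median of all genes tested, 0.01. ISGF3 targets have a median of -0.57 and the common gamma chain, IL-3 and IL-4/IL-13 list -0.50, while STAT3 targets centre on 0.00 and growth hormone and STAT5 targets on 0.24.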

How the data were processed

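The deposited values are a never-negative signal that the table's name calls normalized counts. Per the submitters' processing notes, Trim Galore 0.6.7, HISAT2 2.2.1, featureCounts 2.0.3 and DESeq2 (listed as 2.11.40.8) were used with the build mm10 (GRCm38). Annotation, strand and filters are not given in the sources used here. In each library 100% of values were whole multiples (within 0.02 reads) of 1 number, the value of 1 read. Reads were recovered by division. Columns name a guide target and an animal and were matched to groups only.

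From these, log2(normalized count + 1) was fitted for 12993 genes (mean of at least 10) with limma 3.58.1 (R 4.3.3; lmFit, eBayes with trend, two-sided, no covariates), Benjamini-Hochberg adjusted over all genes. Correlations were planned as a description only; their exact permutation tests, and the comparison with target genes, were added after the data were seen. Fold changes on this scale understate changes of low genes. Alternatives were other pseudocounts, filters and scalings, edgeR 4.0.16 (quasi-likelihood) and DESeq2 1.42.0 on recovered reads (254 adjusted p-values undefined), and leaving out each library. Lengths and gene models came from GENCODE M21 (GRCm38), promoters from RefSeq (GRCm38.p6). On simulated counts for this comparison (12943 genes), limma recovered 86% of genes changed 2-fold and 51% of those changed 1.5-fold, with 8 unchanged genes among 145 calls. DESeq2 recovered 89% and 59%, with 18 unchanged genes among 166 calls. In this simulation the changed genes all lay above a low mean, and genes varied independently of each other. Far more genes were changed than limma called in the real data. These shares are therefore not the power of the real comparison.

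Members and lists were chosen with earlier results of these data known. Named beyond the members were, per list, up to 3 genes with the smallest limma p and a mean of at least 50, and the 3 genes most correlated with each member. Ifnb1, Ifna2, Ifna4, Ifng, Il6, Il12rb2, Il2rb, Il21r, Ifit1, Lyz2, Cd68, Ly6c2, Fgb, Fgg, Apcs, Itih3, Itih4, Orm1, Saa1, Saa2, Saa3, Hamp, Oas3, Oasl1, Oasl2, Ifih1, Hpx, Oas1a, Oas2, Clcf1, Cish and Bcl6 were named after their values were seen. Other genes of the STAT and JAK families are not reported here.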

Additional observations from a re-analysis of the deposited data

Results flagged for a closer look

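In 88 groups of values (44 genes in 2 groups), a single library lay far from the rest of its group in 7, where chance gives about 4.4 (1 in 20). Among the members, Stat3 was at 3431 normalized counts in sgCcnd1 library G where the remaining sgCcnd1 libraries had 1942 to 2287. In the same library, the acute-phase inhibitor Serpina3n was at 8218 against 4018 to 5055, and the interferon receptor chain Ifnar2 at 1449.9 against 919.7 to 1064. In sgCcnd1 library H, the library with Y-linked transcripts nearly absent, Socs2 was at 807 against 170.3 to 307 and Lifr at 4451 against 2533 to 2765. In control library D, Ifngr2 was at 245 against 325 to 327 and Ptprc at 175 against 212 to 218. The difference of Stat3 between groups was -0.13 on the log2 scale without G, against 0.02 with it.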

How the results depend on the processing

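No paired analysis was possible because column headers give animals without replicate numbers. The count models and list counts (DESeq2 calls included) without library H, and the list correlations without 2 libraries, were added after the data were seen. The number of genes lower in sgCcnd1, 1 in limma, became 70 under DESeq2 (27 leaving H out), 2 after quantile normalization, 0 under edgeR leaving H out, and 0 to 2 when a library was left out. The number higher, 0 in limma, was 34 with DESeq2 and 11 without H. Pathway genes called lower, 0 in limma, were 9 with DESeq2 and 4 without H, and called higher 1 with DESeq2 without H. Without H the medians of the interleukin-12 and interleukin-10 group and of STAT4 targets turned to 0.03 and 0.0068. In these fits the cause was not tested. No member was called in any of the 20 alternatives (Stat4 entered 2). The sign was kept in all of them for Stat2, Stat5a, Jak2 and Tyk2. It reversed with quantile normalization for Stat3 (-0.046), Stat5b (-0.016) and Jak1 (-0.016), and with a common 75th percentile for Stat3 (-0.014). Leaving out a library gave -0.13 to 0.16 for Stat3, -0.049 to 0.11 for Stat5b, -0.11 to 0.030 for Stat6 and -0.021 to 0.13 for Jak1, so these 4 have no settled direction. Levels per kb moved by less than 1 SD with the longest CCDS transcript as the length. Stat4 had only 2 to 21 reads per library, and its log2 fold change without the filter had an SE of 0.40.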
